A study of Mus musculus with 12 samples.

Results

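The genes described here are 46 genes of G2 and mitosis, out of 40840 gene symbols listed in the deposited count files. They were taken by gene symbol, by a rule that uses no measured value, although earlier results of these data were known when they were chosen. Every one of them was found in the files and had enough reads to be tested. RNA-seq was performed on OTII donor cells of the C57BL/6 background, which are CD4+ T cells whose transgenic receptor recognizes a peptide of ovalbumin (OVA). The cells had been transferred into WT or *Il6*-/- recipients, which were sensitized intranasally with a house dust mite (HDM) extract containing LPS together with OVA. They were sorted on B220, CD4, CD44 and CD45.1 from the lung-draining mediastinal lymph nodes (mLN) on Day 3 or Day 5, with 3 libraries for each of the 4 groups. Only the recipients lacked *Il6*, throughout the body, and every group received the same kind of donor cell, so the labels cannot be checked by reads of *Il6* in the sorted cells. Blood is named as the tissue in the sample labels, which call the ovalbumin LPS-free and do not say that the extract contained LPS. The days are those of the labels, and the description of the series says that its own count and that of the manuscript start on different days. The sources do not say whether replicates came from separate animals or from pools, so the tests measure the spread between these libraries.

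A dividing cell copies its DNA in S phase, checks it in G2 and then enters mitosis, when the kinase CDK1 with its cyclin B partners becomes active. Chromosomes condense, attach through kinetochores to the microtubules of the spindle, and are parted once the anaphase-promoting complex (APC/C) marks cyclin B and other proteins for destruction. Many genes of these steps are transcribed together late in the cycle under the MuvB complex with B-MYB and FOXM1, and are silenced in resting cells. Antigen-activated CD4+ T cells go through a burst of rapid divisions after priming and then slow down, and transcripts of this kind are commonly used as a sign of cycling cells.

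The depth was 16125947 to 26111657 counted reads per library. The 46 genes took 1.35% to 1.51% of these counts on Day 3 and 0.296% to 0.565% on Day 5. Levels are CPM, read counts scaled to a common library size, after TMM scaling. The 10 markers of CD4+ T cells were all expressed, with a summed level of 8271 to 10160 CPM on Day 3 and 12931 to 15518 CPM on Day 5. Among 8 B-cell markers, almost all of the summed level (435 to 684 CPM) was *Ighm*, the next highest were *Cd79b* (up to 7.38 CPM) and *Cd22* (up to 7.32 CPM), and *Ms4a1* and *Blk* stayed under 1 CPM in every library. Erythroid markers summed to at most 1.14 CPM, which cannot tell blood from lymph node because the cells were sorted. The summed markers of germinal center B cells (16.4 to 86.4 CPM) were nearly all Fas, which T cells also express, with *Rgs13* at 0 in every library. Markers of plasma cells summed to 2.39 to 7.44 CPM, those of myeloid and dendritic cells to 25.5 to 88.0 CPM and those of CD8 T and NK cells to 65.7 to 135 CPM. Lung epithelial markers reached 19.7 CPM in replicate 1 of WT on Day 5 and at most 11.0 CPM elsewhere. Some of these markers differed between the groups compared, at an FDR under 0.05. Between the genotypes, *Nkg7* was higher in *Il6*-/- recipients on Day 3 (2.13 to 5.32 CPM in WT, 21.2 to 23.8 CPM in *Il6*-/-, log2FC 2.64) and on Day 5 (log2FC 1.92), *Klrb1c* was higher on Day 3 (log2FC 2.11) and lower on Day 5 (-0.60), and *Cd22* (3.03) and *Cd74* (1.29) were higher on Day 3. *Pax5* (-2.26), *Fas* (-0.80), *Trbc2* (-0.37) and *Trac* (-0.34) were lower in *Il6*-/- recipients on Day 3, and *Cd3d* (-0.37) on Day 5. *Sftpc* was higher on Day 3 (5.59), at 9.33 CPM in replicate 2 of *Il6*-/- recipients and at most 0.43 CPM in the other Day 3 libraries. From Day 3 to Day 5 in WT, *Klrb1c* (log2FC 2.77), *Cd79a* (1.91), *Cd3g* (1.32), *Cd3d* (1.18), *Sftpc* (6.67) and *Sftpb* (4.88) rose, among others. In the same comparison, *Cd8a* (-3.51), *Mybl1* (-2.23), *Prdm1* (-1.65), *Itgam* (-0.86) and *Ighm* (-0.55) fell. Over the same days in *Il6*-/- recipients, *Sftpb* (3.36), *Pax5* (3.10), *Cd79a* (1.73), *Csf1r* (1.55), *Cd3g* (1.18) and *Cd3d* (1.08) rose, among others. There, *Cd8a* (-3.20) and *Prdm1* (-1.73) fell. The part of these markers in the results was not tested.

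The G2/M and mitosis genes were highly expressed on Day 3 and at much lower levels on Day 5, in both recipients. Summed over the 46 genes, the level on Day 3 was 15382, 14081 and 15196 CPM in the 3 WT libraries and 14732, 14281 and 14531 CPM in the 3 *Il6*-/- libraries. On Day 5, it was 2937, 3767 and 3697 CPM in WT, against 3358, 5340 and 4261 CPM in *Il6*-/- recipients. Every Day 5 library was far below every Day 3 library, and the genotypes overlapped on both days. The mean was 14886 ± 704 CPM on Day 3 and 3467 ± 461 CPM on Day 5 in WT (SD, n = 3), a ratio of 4.29, and 14515 ± 226 and 4320 ± 992 CPM in *Il6*-/- recipients, a ratio of 3.36. In sorted bulk cells, fewer cells in G2 or mitosis and less of these transcripts per cell cannot be told apart.

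**Figure D1:**
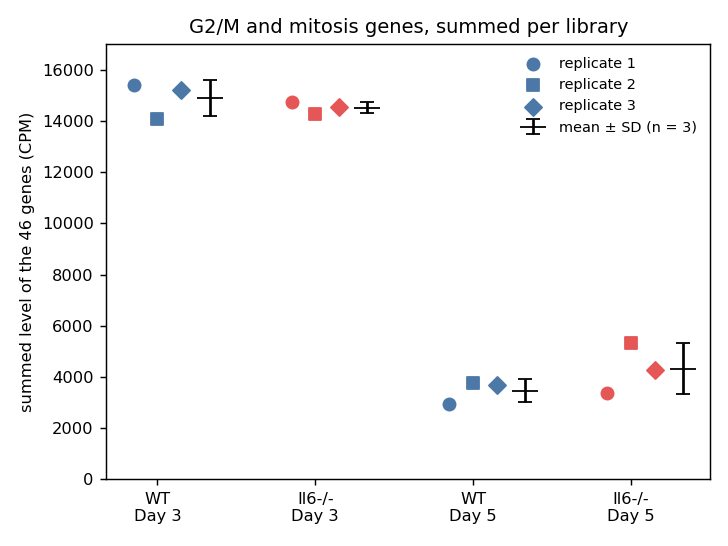
Summed level of the 46 G2/M and mitosis genes in CPM (y axis, starting at 0) in each of the 12 libraries, by group (x axis). Symbols mark the replicate number, and bars show the mean ± SD of 3 libraries. The 6 Day 3 libraries lie between 14081 and 15382 CPM, and the 6 Day 5 libraries between 2937 and 5340 CPM.

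Per kilobase of transcript, the highest level in WT on Day 3 was that of *Hmgb2*, a DNA-bending chromatin protein, at 579 ± 17.1 CPM per kb (SD, n = 3). It was followed by *Ube2c* (482 ± 29.5), the ubiquitin-conjugating enzyme of the APC/C, and *Birc5* (474 ± 18.1), which encodes survivin. *Cks1b* (414 ± 27.6), *Tubb4b* (406 ± 26.4) and *Cks2* (350 ± 16.3) came next. *Ube2c* and *Birc5* did not differ beyond their SDs, nor did *Cks1b* and *Tubb4b*, while the steps below *Hmgb2*, *Birc5* and *Tubb4b* were larger than the SDs of the genes on either side added together. The lowest was *Anln*, the gene of the cleavage-furrow protein anillin, at 4.82 ± 0.183 CPM per kb. These per-length levels understate several members, because the authors' counting dropped reads that aligned to more than 1 place. Of the 50-base stretches of the transcript, the share with another exact copy in the genome was 71.1% for *Cks2*, 58.3% for *Ccnb1*, 53.1% for *Tubb4b*, 27.3% for *Hmgb2* and 14.3% for *Cks1b*. The same stretches are lost in all libraries, so comparisons of 1 gene between groups are less affected than comparisons between genes.

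To see how the genes changed over time, the days were compared separately in WT and in *Il6*-/- recipients. In OTII cells from WT recipients, 45 of the 46 genes fell and 1, *Smc4*, rose at a false discovery rate (FDR, the Benjamini-Hochberg adjusted p over the 13570 genes tested) under 0.05 in edgeR's quasi-likelihood test. Among all genes tested, 27.1% fell and 29.5% rose in this comparison. In *Il6*-/- recipients, 45 fell and none rose, against 30.1% and 30.4% of all genes, and the remaining gene was again *Smc4*. All 45 fell by at least 2-fold in both genotypes, as 9.39% of all genes did in WT and 11.4% in *Il6*-/- recipients. For each of the 45, every Day 5 library was below every Day 3 library of its genotype, which held for 29.9% of all genes in WT and 32.7% in *Il6*-/- recipients. The median log2 fold change (log2FC) of the 46 genes was -2.81 in WT and -2.11 in *Il6*-/- recipients, beside 0.09 over all genes in each. In WT, 42 of the 46 genes were among the lowest 5% of all genes by log2FC, and in *Il6*-/- recipients 41 were. A fall of 8-fold or more was seen for 13 genes in WT and for 0 in *Il6*-/- recipients, all at an FDR under 0.05. The share of all genes at this limit was not counted. These counts do not test a difference between the genotypes, which is given below as an interaction.

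The genes of the CDK1 engine fell in both genotypes, 6 of 6, with a median log2FC of -2.88 in WT and -2.05 in *Il6*-/- recipients. *Ccnb1*, which encodes cyclin B1 (chr13:100915153-100923116, GRCm39, reverse strand), was at 478, 419 and 512 CPM in the 3 WT libraries on Day 3 and at 28, 61.5 and 58.8 CPM on Day 5. In *Il6*-/- recipients, it was at 485, 475 and 505 CPM on Day 3 and 48.7, 141 and 81.8 CPM on Day 5. The days did not overlap, and its log2FC was -3.25 in WT and -2.44 in *Il6*-/- recipients (standard error 0.32 and 0.31, FDR = 6.73e-07 and 6.47e-06). The paralog *Ccnb2* went from 408 ± 19.7 to 58.5 ± 24.8 CPM in WT (mean ± SD, n = 3) and from 381 ± 16.4 to 96.3 ± 44 CPM in *Il6*-/- recipients. The kinase gene *Cdk1* itself went from 285 ± 15.6 to 36.7 ± 13.2 CPM in WT and from 302 ± 6.30 to 57.6 ± 24.9 CPM in *Il6*-/- recipients. *Cks1b* and *Cks2* encode the small subunits that bind CDK1, and their falls were smaller. In WT, *Cks1b* had a log2FC of -2.25 (SE 0.18) and *Cks2* of -1.80 (SE 0.14), and in *Il6*-/- recipients -1.93 and -1.94. *Cdc25c*, the phosphatase that activates CDK1, fell most of this class in WT, with a log2FC of -3.28 (SE 0.33).

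The APC/C genes fell together as well, 3 of 3 in each genotype. *Ube2c* was at 476, 433 and 488 CPM on Day 3 and 37.1, 72.1 and 73.9 CPM on Day 5 in WT, and at 477, 450.3 and 444 CPM and 62.3, 129 and 97.2 CPM in *Il6*-/- recipients. Its log2FC was -2.93 (SE 0.25) in WT and -2.25 (SE 0.24) in *Il6*-/- recipients. *Cdc20*, the APC/C activator that the spindle checkpoint holds back, had a log2FC of -2.92 in WT and -2.20 in *Il6*-/- recipients, and *Cdca3*, needed for entry into mitosis, one of -2.62 and -2.0.

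The mitotic kinases, chromosomal passengers and checkpoint genes had the largest median fall of the 8 classes. All 8 genes fell, and the median log2FC was -3.14 in WT and -2.23 in *Il6*-/- recipients. *Nek2* encodes a centrosomal kinase. It was at 250.3, 215 and 239 CPM on Day 3 and 8.96, 23.1 and 24 CPM on Day 5 in WT. In *Il6*-/- recipients, it was at 222, 210.2 and 216 CPM and 17.5, 52.2 and 24.5 CPM. Its log2FC of -3.65 (SE 0.35) in WT and -2.79 (SE 0.34) in *Il6*-/- recipients was the lowest of the 46 genes in each genotype. *Bub1*, a kinase of the spindle checkpoint, went from 137 ± 10.2 to 12.5 ± 3.53 CPM in WT (log2FC -3.46, SE 0.23) and from 133 ± 4.80 to 21.7 ± 8.42 CPM in *Il6*-/- recipients (log2FC -2.62, SE 0.22). *Ttk*, the other checkpoint kinase of the class, had a log2FC of -3.16 and -2.23. The mitotic kinases *Aurka* and *Aurkb* fell by similar amounts, -3.29 and -3.07 in WT and -2.44 and -2.19 in *Il6*-/- recipients on the log2FC scale. *Tpx2*, whose product activates Aurora A on the spindle, went from 230.3 ± 18.1 to 26.5 ± 9.59 CPM in WT. The chromosomal passenger genes *Birc5* and *Cdca8* (borealin), whose products hold Aurora B at centromeres, had log2FC values of -2.83 and -2.82 in WT and -2.12 and -2.11 in *Il6*-/- recipients.

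Centromere and kinetochore genes were split. *Nuf2* and *Ndc80*, parts of the complex that grips microtubules, had log2FC values of -3.18 and -2.50 in WT and -2.34 and -2.15 in *Il6*-/- recipients. The kinetochore motor gene *Cenpe* (-2.76 and -2.01) and *Cenpf*, a large protein of the outer kinetochore (-2.65 and -1.82) lay in the same range. *Cenpa*, the histone H3 variant that marks centromeres, was at 413, 417 and 462 CPM on Day 3 and 116, 153 and 165 CPM on Day 5 in WT. In *Il6*-/- recipients, it was at 360.0, 371 and 365 CPM and 122, 184 and 170.3 CPM. It fell less, with a log2FC of -1.57 (SE 0.14) and -1.21 (SE 0.14). *Hjurp*, whose product loads CENP-A onto centromeres, had the smallest called fall in WT. Its level was 277, 252 and 272 CPM on Day 3 and 130.2, 125 and 114 CPM on Day 5 in WT, and 276, 265 and 275 CPM and 115, 149 and 126 CPM in *Il6*-/- recipients. The days still did not overlap, and the log2FC was -1.12 (SE 0.09) and -1.06 (SE 0.09). Annotated exons of *Hjurp* overlap those of *A730008H23Rik*, *Mroh2a* and *Trpm8*, by 14681 bases added over these partners. The most expressed partner reached 26.8 CPM. The authors counted reads without regard to strand, so reads of the shared stretches cannot be assigned.

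**Figure D2:**
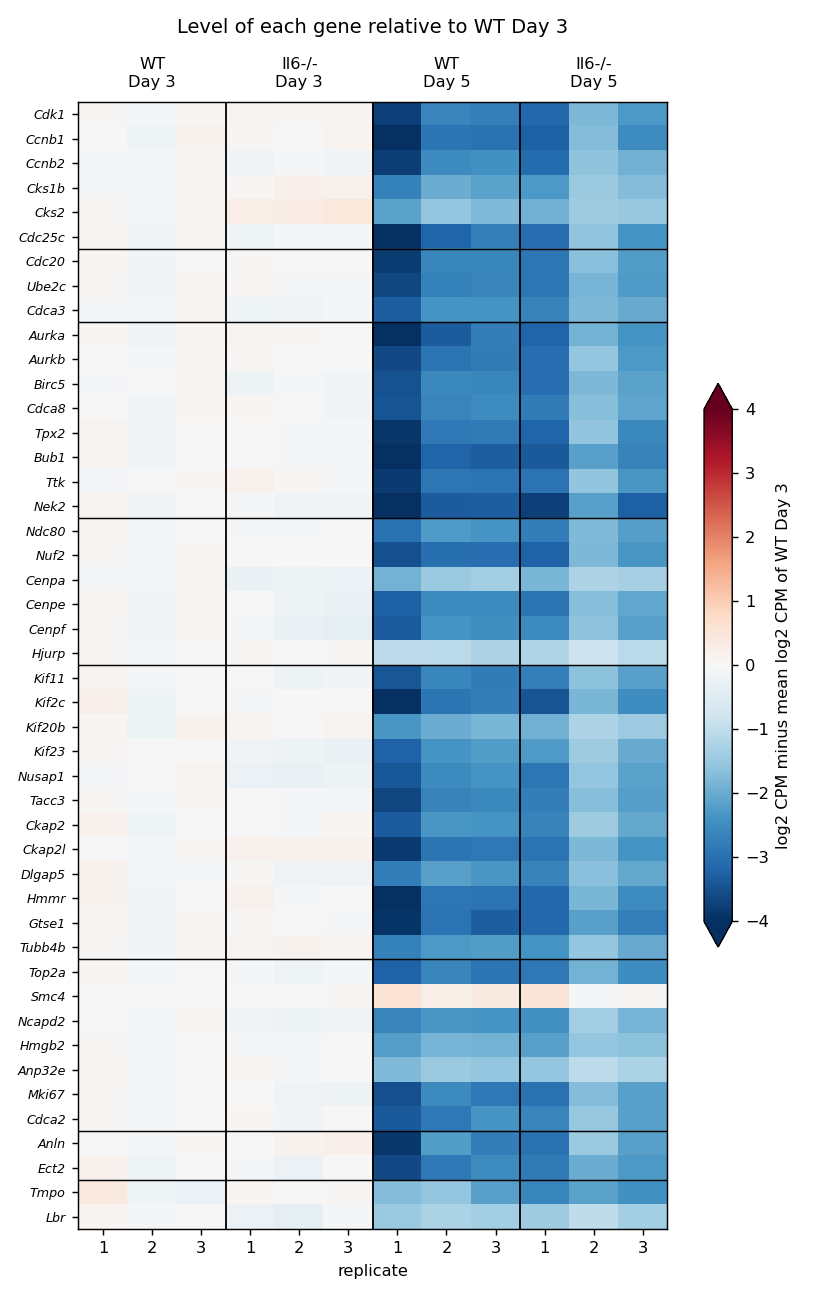
Level of each of the 46 genes (rows, grouped by role between black lines) in each of the 12 libraries (columns), as log2 CPM minus the mean log2 CPM of the 3 WT Day 3 libraries. Blue is lower and red is higher. The Day 5 columns are blue in all rows except *Smc4*, and palest in replicate 2 of *Il6*-/- recipients.

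All 12 spindle motor and microtubule genes fell in each genotype, with a median log2FC of -2.80 in WT and -2.03 in *Il6*-/- recipients. *Tubb4b*, a beta-tubulin, was at 663, 602 and 683 CPM on Day 3 and 98.8, 133 and 137 CPM on Day 5 in WT, and at 699.5, 720.1 and 693 CPM and 124, 224 and 162 CPM in *Il6*-/- recipients. Its log2FC was -2.40 (SE 0.17) and -2.05 (SE 0.17). *Gtse1*, a microtubule-associated protein of G2 and S phase, had the lowest mean CPM of the spindle genes in WT on Day 5. It went from 96.1, 81.5 and 93.8 CPM to 5.96, 11.7 and 9.17 CPM in WT and from 92.7, 89.6 and 86.6 CPM to 10.3, 19.98 and 13.5 CPM in *Il6*-/- recipients. Its log2FC was -3.34 (SE 0.22) and -2.62 (SE 0.21). Among the kinesins, *Kif11*, the motor that pushes spindle poles apart, had a log2FC of -2.90 and -2.01, and *Kif2c*, a microtubule depolymerase, of -3.14 and -2.41. *Kif23*, a motor of the central spindle, had -2.55 and -1.65, and *Kif20b*, another kinesin of late mitosis, -2.05 and -1.58. The spindle proteins *Hmmr*, *Ckap2l*, *Tacc3*, *Nusap1*, *Ckap2* and *Dlgap5* lay between -3.22 and -2.40 in WT and between -2.49 and -1.86 in *Il6*-/- recipients.

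Among chromosome structure and chromatin genes, 6 of 7 fell. *Hmgb2* was at 1854, 1749 and 1823 CPM on Day 3 and 390.2, 496 and 489 CPM on Day 5 in WT, and at 1767, 1766 and 1778 CPM and 397, 619.8 and 581 CPM in *Il6*-/- recipients. Its mean was the highest of the 46 per kilobase in all 4 groups, but on Day 5 in WT it did not differ beyond the SDs from *Smc4* (147 ± 18.9 against 141 ± 15.5 CPM per kb). Its log2FC was -1.98 (SE 0.13) in WT and -1.73 (SE 0.13) in *Il6*-/- recipients. *Top2a*, the topoisomerase that untangles sister chromatids, went from 889.8, 804 and 859.7 CPM to 90.00, 137 and 112 CPM in WT and from 822, 761 and 805 CPM to 117, 229 and 153 CPM in *Il6*-/- recipients. *Mki67*, which encodes the proliferation antigen Ki-67 on the surface of mitotic chromosomes, went from 489 ± 19 to 65.1 ± 21 CPM in WT and from 453 ± 34.7 to 106 ± 42.7 CPM in *Il6*-/- recipients. *Anp32e*, a chaperone of the histone variant H2A.Z, fell less, by a log2FC of -1.60 and -1.28. *Cdca2*, a targeting subunit of protein phosphatase at anaphase, had -2.80 and -2.02. The cytokinesis genes fell in both genotypes, with a log2FC of -2.93 and -2.22 for *Ect2*, the activator of RhoA at the division plane, and of -2.80 and -2.22 for *Anln*. *Ect2* was at 99.7, 78.9 and 88 CPM on Day 3 and 7.28, 12.3 and 15.4 CPM on Day 5 in WT, and at 83.6, 75.1 and 87 CPM and 12.4, 22.2 and 18.1 CPM in *Il6*-/- recipients.

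The exception was *Smc4*, which encodes an ATPase core subunit of the condensin complexes that compact chromosomes. On Day 3, it was at 464, 464 and 472 CPM in WT, against 464, 458 and 483 CPM in *Il6*-/- recipients, and on Day 5 at 681, 548 and 600.3 CPM and 672, 453 and 485 CPM. The 3 WT Day 5 libraries were above all WT Day 3 libraries, as for 33.4% of all genes, while the *Il6*-/- libraries overlapped between the days. In WT the log2FC was 0.39 (SE 0.12, FDR = 0.0119), and in *Il6*-/- recipients 0.20 (95% CI -0.06 to 0.45, FDR = 0.164). Per kilobase, it ranked 18 of 46 on Day 3 in both genotypes and 2 of 46 on Day 5. The rise in WT was lost without replicate 1 of WT on Day 5 (log2FC 0.30, FDR = 0.062). Its condensin partner *Ncapd2* fell, with a log2FC of -2.43 (SE 0.18) in WT and -1.67 (SE 0.17) in *Il6*-/- recipients. The other condensin genes, looked at after *Smc4* was seen to stand apart, fell too. *Smc2*, which pairs with *Smc4* in every condensin, had a log2FC of -2.24 in WT and -1.86 in *Il6*-/- recipients, *Ncaph* -2.94 and -2.15, *Ncapg* -3.11 and -2.11, *Ncapd3* -2.01 and -1.56, *Ncapg2* -3.34 and -2.69, and *Ncaph2* -1.06 and -0.76. All of these had an FDR under 0.05.

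Both nuclear envelope genes fell. *Lbr*, the lamin B receptor, went from 840.4, 765 and 810.1 CPM to 289.6, 337 and 313 CPM in WT and from 686, 629 and 758 CPM to 298, 396 and 314 CPM in *Il6*-/- recipients, and its log2FC was -1.36 (SE 0.11) and -1.04 (SE 0.10). *Tmpo* encodes the lamina-associated polypeptides LAP2 (chr10:90983375-91017177, reverse strand). It was at 562, 385 and 369 CPM on Day 3 and 128, 147 and 94.8 CPM on Day 5 in WT, and at 456, 433 and 440.4 CPM and 71.3, 97.9 and 80.8 CPM in *Il6*-/- recipients. Its log2FC was -1.83 (SE 0.17) in WT and -2.41 (SE 0.18) in *Il6*-/- recipients. *Tmpo* and *Cks2* were the 2 genes among the 45 whose fall was larger in *Il6*-/- recipients, and for the other 43 it was smaller. Replicate 1 of WT on Day 3 stood above the other Day 3 libraries for *Tmpo*.

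**Figure D3:**
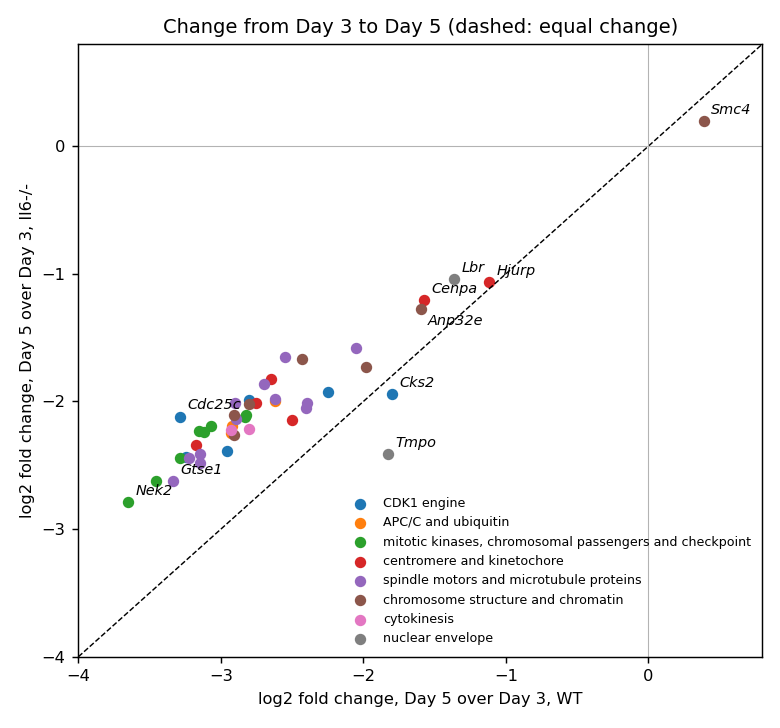
Log2 fold change from Day 3 to Day 5 in WT (x axis) against that in *Il6*-/- recipients (y axis) for the 46 genes, coloured by role, with a dashed line where both are equal. Of the 45 genes that fell, 43 lie above the line and *Tmpo* and *Cks2* below it, with *Smc4* alone above 0.

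Further genes of the same programme, listed with earlier results of these data known, changed in the same direction. Of 89 other genes of G2 and mitosis, 88 fell in each genotype and none rose, with a median log2FC of -2.53 in WT and -1.94 in *Il6*-/- recipients. *Pttg1*, which encodes securin, was the remaining gene, with a log2FC of 0.11 (FDR = 0.351) in WT and 0.10 (FDR = 0.431) in *Il6*-/- recipients. The transcription factor genes of the programme fell in both genotypes, *Mybl2* (B-MYB) from 129.9 ± 6.90 to 8.95 ± 3.65 CPM and *Foxm1* from 80.4 ± 14.9 to 8.23 ± 3.14 CPM in WT. In *Il6*-/- recipients, *Mybl2* had a log2FC of -3.05 and *Foxm1* of -2.60. *Plk1*, the polo-like kinase, had a log2FC of -3.44 in WT and -2.57 in *Il6*-/- recipients, and *Ccna2*, cyclin A2, -3.42 and -2.84. The smallest p among the 89 were those of *Zwilch* and *Kifc1* in WT, with a log2FC of -3.19 and -2.34, and of *Zwilch* and *Cenpw* in *Il6*-/- recipients, with -2.50 and -1.98. *Zwilch* is part of a checkpoint complex at kinetochores, *Kifc1* a minus-end motor and *Cenpw* a centromere protein. All 48 DNA replication genes fell in both genotypes, with a median of -2.53 and -2.14. The WT and *Il6*-/- values come from separate libraries.

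Because the genes moved together, their promoters were searched for letters known from the late cell cycle programme. The cell cycle genes homology region (CHR), searched as TTTGAA or TTCGAA, is bound by the MuvB complex, and the CCAAT box by NF-Y. Both strands were searched from 250 bases before to 50 bases after the start of the canonical transcript (GENCODE vM39 on GRCm39). A CHR match was found in 26 of the 46 promoters (56.5%), against 17.6% of the 19307 protein-coding promoters and 15.6% of those of the genes tested. A CCAAT match was found in 32 (69.6%), against 39.4% of all, and 2 or more in 23 (50%), against 12.7%. Both motifs were present in 22 (47.8%), against 7.57%. The 2 motifs are different letters, although a TTTGAA and an ATTGG can share bases, as they do near the end of the *Cdca8* sequence. Among the other G2/M and mitosis genes, 43.8% had a CHR match and 51.7% a CCAAT match, and among the DNA replication genes 10.4% and 54.2%. A match is only a description of the letters and does not show that a factor binds there. Both motifs were also found in the promoter of *Smc4*, which did not fall, and in that of *Hjurp*, with the smallest called fall in WT. All 10 genes with neither motif fell in both genotypes. Whether the motifs go with the size of the fall was not tested. The promoters printed here show the letters in 4 genes with both motifs that fell by at least 4-fold in both genotypes. That of *Tmpo* is printed beside them as 1 of the 10 promoters with neither motif, the others being those of *Aurka*, *Birc5*, *Tpx2*, *Nuf2*, *Kif2c*, *Nusap1*, *Tacc3*, *Dlgap5* and *Ncapd2*. Each runs from 170 bases before to 30 bases after the start of transcription, 5′ to 3′ on the strand of the gene, with CHR and CCAAT matches of either strand in capitals.
Cdk1: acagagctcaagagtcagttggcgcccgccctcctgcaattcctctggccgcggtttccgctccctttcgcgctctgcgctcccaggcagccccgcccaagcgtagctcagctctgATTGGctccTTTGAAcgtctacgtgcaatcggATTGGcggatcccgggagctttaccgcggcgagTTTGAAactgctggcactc
Top2a: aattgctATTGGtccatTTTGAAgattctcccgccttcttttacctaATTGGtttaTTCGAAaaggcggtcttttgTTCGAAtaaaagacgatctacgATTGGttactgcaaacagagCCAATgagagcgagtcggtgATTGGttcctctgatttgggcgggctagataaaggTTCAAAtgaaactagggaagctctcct
Aurkb: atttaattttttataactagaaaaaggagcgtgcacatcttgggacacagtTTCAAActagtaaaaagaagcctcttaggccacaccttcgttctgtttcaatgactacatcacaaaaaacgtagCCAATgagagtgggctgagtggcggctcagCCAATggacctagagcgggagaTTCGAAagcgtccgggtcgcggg
Cdca8: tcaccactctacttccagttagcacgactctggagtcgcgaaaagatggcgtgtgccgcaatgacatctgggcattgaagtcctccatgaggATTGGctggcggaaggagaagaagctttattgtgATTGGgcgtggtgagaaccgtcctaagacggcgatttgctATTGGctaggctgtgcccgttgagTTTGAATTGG
Tmpo: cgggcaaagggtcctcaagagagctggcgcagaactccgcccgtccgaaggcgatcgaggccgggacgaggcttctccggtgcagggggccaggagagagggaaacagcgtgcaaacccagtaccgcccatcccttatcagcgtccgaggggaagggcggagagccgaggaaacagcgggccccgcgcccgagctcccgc

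*Cdk1* is transcribed from the reverse strand of chromosome 10, and its promoter is shown at chr10:69188739-69188938. In the stretch shown, it has a CHR match starting at -45 and another at 12, with CCAAT matches at -54 and -22, where the first transcribed base is 1. The *Top2a* promoter (chr11:98915012-98915211, reverse strand) holds CHR matches at -153, -114, -94 and 4 and CCAAT matches at -163, -123, -72, -52 and -32. In the *Aurkb* promoter (chr11:68936297-68936496, forward strand), CHR matches lie at -119 and 8 and CCAAT matches at -45 and -15. The *Cdca8* promoter (chr4:124830688-124830887, reverse strand) has a CHR match at 21 and CCAAT matches at -78, -44, -4 and 26. *Tmpo* (chr10:91007611-91007810, reverse strand) has neither in the stretch shown.

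To assess whether the absence of host IL-6 changed the programme, the 2 kinds of recipient were compared on each day. On Day 3, no difference was found in any of the 46 genes at an FDR under 0.05, whereas 7.52% of all genes tested were higher and 6.19% lower in *Il6*-/- recipients. At an unadjusted p under 0.05, 2 of the 46 passed, *Cks2* as higher and *Lbr* as lower, where 14.7% of all genes were higher and 12.1% lower. DESeq2 and limma-voom called 0 as well, with 1 and 2 at an unadjusted p under 0.05. The median log2FC was -0.03, with 18 genes above and 28 below 0, beside a median of 0.01 and 52.1% above 0 over all genes. The 95% confidence interval of every one of the 46 lay within a 2-fold change, the widest bounds being -0.78 and 0.72. *Cks2* had the largest difference. It was at 248, 229 and 249.5 CPM in WT, against 294, 297 and 325 CPM with *Il6*-/- recipients, without overlap (log2FC 0.33, SE 0.13, FDR = 0.115). *Cenpf* was at 118, 108 and 120.0 CPM and 109, 94.9 and 88.7 CPM, with the second largest difference (log2FC -0.24, SE 0.21, FDR = 0.517). For 3 of the 46 genes all *Il6*-/- libraries were above all WT libraries and for 7 below, against 20.5% and 15.7% of all genes. When the 6 Day 3 libraries were fitted alone, *Cks2* was called higher and 6 genes lower (*Cenpa*, *Cenpf*, *Kif23*, *Lbr*, *Ncapd2* and *Nusap1*), where 11.7% and 10.6% of all genes were called. In that fit, 14 of the 46 passed an unadjusted p of 0.05.

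In the other lists, 1 gene was called on the same day. Of the 89 other G2/M and mitosis genes, 1 was lower in *Il6*-/- recipients, *Cdc25b*, a CDK-activating phosphatase, whose level was 274 ± 18.4 CPM in WT, against 159 ± 27 CPM with *Il6*-/- recipients (log2FC -0.78, SE 0.22, FDR = 0.0303). That call was lost without any 1 of the 3 WT libraries or of *Il6*-/- replicates 1 and 2 (FDR = 0.0579 to 0.127). None of the 48 DNA replication genes was called on Day 3, with 3 at an unadjusted p under 0.05. Their median log2FC was 0.13, with 45 of 48 above 0, against 52.1% of all genes, and 26 with all *Il6*-/- libraries above all WT libraries, against 20.5%.

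On Day 5, mean levels of most of these genes were above those of WT in OTII cells from *Il6*-/- recipients, but the calls depended on the fit. With edgeR, none of the 46 genes passed the test when the libraries were compared without regard to replicate number. With replicate number as a block on both days, 39 were called higher and 1 lower, against 5.43% and 6.3% of all genes. With the block on Day 5 only, 39 were called higher and 2 lower, where 11% of all genes were called in either direction. The log2FC was above 0 for 44 of the 46 genes, with a median of 0.65, whereas 51.7% of all genes were above 0 with a median of 0.01. In the fit without the block, 1.27% of all genes were called higher and 3.35% lower. At an unadjusted p under 0.05, 36 genes were higher and 1, *Tmpo*, lower, as were 9.47% and 10.4% of all genes. The smallest FDR was that of *Kif11* (0.0591). When the 6 Day 5 libraries were fitted alone, 26 of the 46 genes passed an unadjusted p of 0.05 and 0 were called, against 2.76% of all genes. limma-voom called 0, with 33 at an unadjusted p under 0.05. DESeq2 called 11 higher and 1, *Tmpo*, lower, against 4.37% and 5.7% of the 11202 genes counted as tested there. For none of the 46 genes were all *Il6*-/- libraries above or below all WT libraries, as was the case for 8.65% and 11% of all genes. The 95% confidence intervals reached as high as 1.80 on the log2 scale and as low as -0.93, and those of 16 of the 46 genes lay within a 2-fold change.

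**Figure D4:**
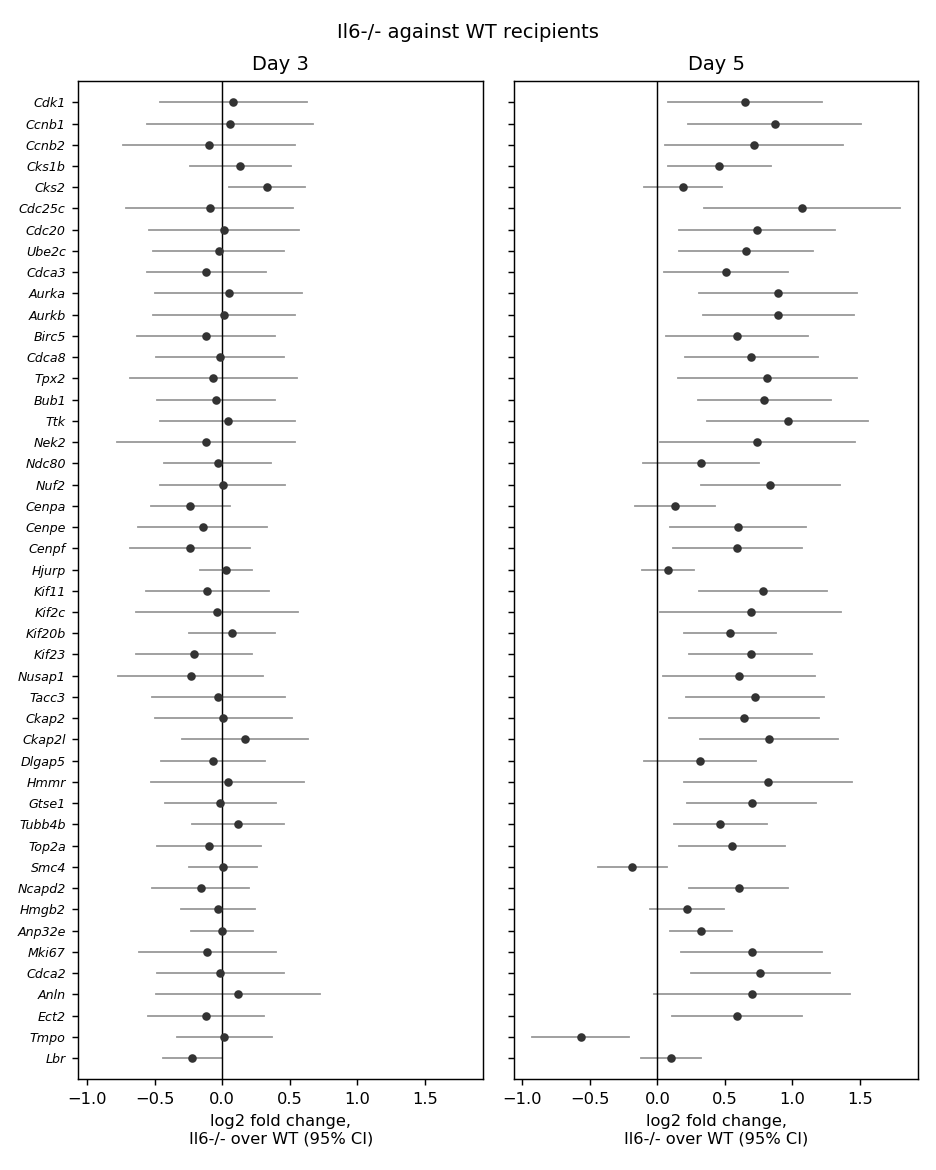
Log2 fold change of *Il6*-/- over WT recipients for the 46 genes on Day 3 (left) and Day 5 (right), with 95% confidence intervals from edgeR. On Day 3 the points lie around 0, with a median of -0.03, and on Day 5 they lie to the right of 0 except *Smc4* and *Tmpo*, with a median of 0.65 and wider intervals.

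The spread between libraries of 1 group was larger on Day 5 than on Day 3 for these genes. The median SD of log2 CPM over the 46 genes on Day 5 was 0.51 for the WT libraries and 0.56 for those of *Il6*-/- recipients, but on Day 3 it was 0.09 and 0.05. Over all genes, it was 0.19, 0.20, 0.14 and 0.14. The fit over the 12 libraries used 1 estimate of the spread per gene for both days, so its p-values and intervals do not reflect this difference between the days. On Day 5, replicate 1 of WT was the lowest of its group for 43 of the 46 genes, against 35.1% of all genes. Replicate 1 of *Il6*-/- recipients was the lowest for 45, against 33.3% of all genes. Replicate 2 of *Il6*-/- recipients was the highest of its group for 45, against 36% of all genes. Relative to WT on Day 3, the median log2 level of the 46 genes was -3.44, -2.55 and -2.54 in the 3 WT libraries on Day 5 and -2.84, -1.65 and -2.17 in the 3 *Il6*-/- libraries.

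Libraries with the same replicate number shared part of their deviation on Day 5. Over all genes, the deviations of same-numbered WT and *Il6*-/- libraries from their group means correlated with r = 0.24, 0.21 and 0.13 on Day 5. Over the 46 genes alone, r was 0.79, 0.61 and 0.08, and it was 0.62 between replicate 3 of WT and replicate 2 of *Il6*-/- recipients. *Trbc1*, a constant gene of the T-cell receptor beta chain, was at 106, 5.56 and 543 CPM in WT, against 96.3, 5.16 and 532 CPM in *Il6*-/- recipients on Day 5, so that the *Il6*-/- level was 0.906, 0.928 and 0.980 times that of the same-numbered WT library, while it differed up to 97.8-fold between numbers. On Day 3, the *Il6*-/- level of *Trbc1* was 0.811, 0.8065 and 0.902 times that of the same-numbered WT library, against a 3.32-fold spread within WT. *Trbc1* was noticed after the values were seen, and its reads are hard to tell from those of the near-identical *Trbc2*. The labels do not say what the number stands for. Between same-numbered libraries, the median difference of the 46 genes was 0.62, 0.85 and 0.39 on the log2 scale. In all 3 pairs, *Il6*-/- was higher for 43 of the 46 genes and lower for 2, *Smc4* and *Tmpo*, as for 22% and 21.1% of all genes. The remaining gene was *Hjurp*. The 6 genes not called with replicate number as a block on both days were *Cenpa*, *Cks2*, *Dlgap5*, *Hjurp*, *Lbr* and *Smc4*. With the block on Day 5 only, *Smc4* was called as well, as lower in *Il6*-/- recipients.

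By role, the median log2FC on Day 5 was above 0 in all classes except the nuclear envelope genes (-0.23). The 8 mitotic kinase, chromosomal passenger and checkpoint genes had the highest median log2FC, 0.80, and the 12 spindle genes had 0.69. *Cdc25c* had the largest difference of the 46. It was at 2.55, 6.13 and 8.46 CPM in WT, against 6.83, 18.8 and 10.8 CPM with *Il6*-/- recipients on Day 5, with overlap between the genotypes (log2FC 1.07, SE 0.34, FDR = 0.0873, with the block 0.00298). *Ttk* was at 2.90, 5.61 and 5.36 CPM and 5.29, 13.8 and 8.22 CPM (log2FC 0.97, SE 0.28, FDR = 0.0638, with the block 0.00147). In both genes, replicate 1 of the *Il6*-/- group was inside the range of WT. *Kif11* was at 27.8, 49.1 and 43.4 CPM with WT recipients and 44.6, 96.7 and 65.7 CPM with *Il6*-/- recipients (log2FC 0.78, SE 0.22, FDR = 0.0591, with the block 9.91e-05). *Mki67* was at 42.8, 84.4 and 67.9 CPM and 61.8, 147 and 108 CPM (log2FC 0.70, SE 0.25, FDR = 0.121, with the block 9.91e-05). For *Ccnb1*, the log2FC on Day 5 was 0.87 (SE 0.30, FDR = 0.115, with the block 0.000326). Of the 44 genes above 0, those closest to 0 were *Hjurp*, *Lbr* and *Cenpa*. The log2FC was 0.13 (95% CI -0.16 to 0.42) for *Cenpa*, 0.08 (-0.12 to 0.27) for *Hjurp* and 0.10 (-0.12 to 0.32) for *Lbr*.

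*Tmpo* and *Smc4* went the other way. *Tmpo* had a log2FC of -0.57 (SE 0.17, FDR = 0.0696, with the block 0.00627), and *Smc4* one of -0.18 (95% CI -0.44 to 0.07, FDR = 0.426, with the block 0.0542). For *Tmpo*, replicate 2 of *Il6*-/- recipients (97.9 CPM) was above replicate 3 of WT (94.8 CPM), and the other *Il6*-/- libraries were below all WT libraries.

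**Figure D5:**
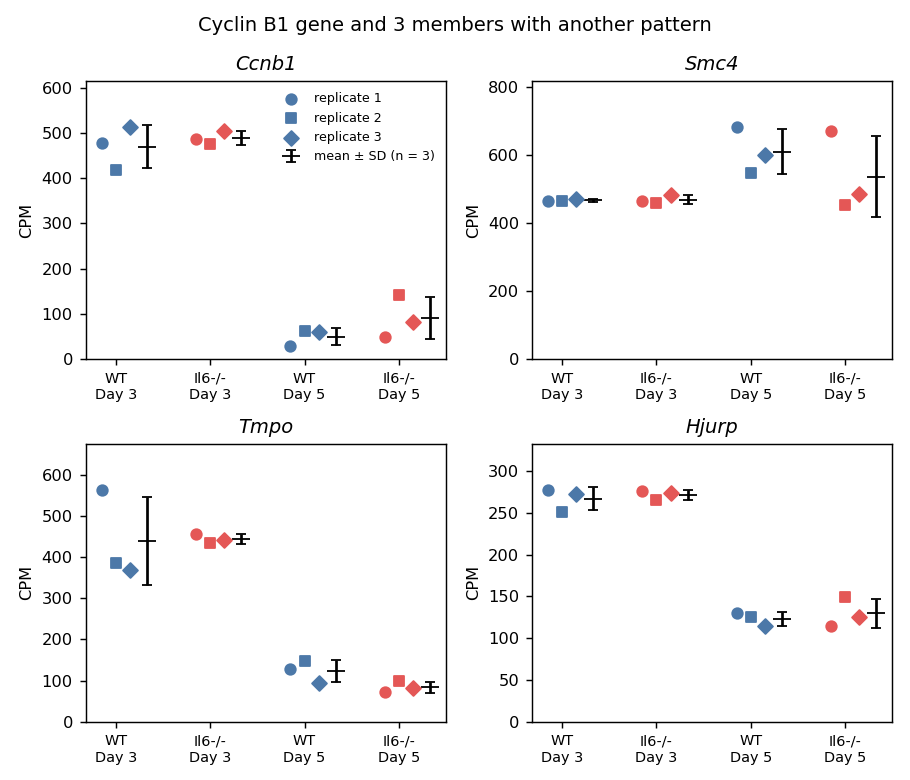
Level in CPM (y axes, starting at 0) of *Ccnb1*, *Smc4*, *Tmpo* and *Hjurp* in each library, by group. Symbols mark the replicate number, and bars show the mean ± SD of 3 libraries. *Ccnb1* falls from 419 to 512 CPM on Day 3 to 28 to 141 CPM on Day 5, *Hjurp* falls less, *Smc4* does not fall, and *Tmpo* is lower in *Il6*-/- than in WT recipients on Day 5 in each same-numbered pair.

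The Day 5 comparison without the block depended on single libraries, and libraries were left out only without the block. Without replicate 1 of *Il6*-/- recipients, 37 of the 46 genes were called higher and 1 lower, where 8.38% of all genes were called in either direction, and the median log2FC was 0.89. Without replicate 2 of *Il6*-/- recipients, none was called, 13 passed an unadjusted p of 0.05 and the median was 0.34. The summed level in *Il6*-/- recipients was 1.25 times that in WT with all libraries and 1.10 times without replicate 2. Without replicate 1 of WT, none was called and the median was 0.40, and without replicate 3 of WT 9 were called higher and 1 lower, against 7.36% of all genes. Replicate 2 of *Il6*-/- recipients, the highest in these genes, also had the lowest mitochondrial share of counts on Day 5, 1.47%, against 1.82% to 2.37% in the others. Replicate 1 of WT, the lowest, had the highest, 2.37%, and the highest lung epithelial sum. The heat shock gene *Hspa1a* was at 21.6, 3.84 and 15.3 CPM in the WT libraries of Day 5 and at 232, 32.4 and 186 CPM in the *Il6*-/- libraries, higher in *Il6*-/- in every same-numbered pair. The immediate early gene *Fos*, like *Hspa1a* looked at after its values were seen, was at 194, 109.8 and 170 CPM in WT, against 188, 76.1 and 169 CPM in *Il6*-/- recipients. The part of these features in the result was not tested.

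The other lists gave a similar picture on Day 5. Of the 89 other G2/M and mitosis genes, 5 were called higher in *Il6*-/- recipients (*Kntc1*, *Melk*, *Ncaph*, *Prc1* and *Zwilch*) and none lower, and the log2FC was above 0 for 86, with a median of 0.51. *Kntc1*, a kinetochore checkpoint gene, was at 9.51 ± 2.03 CPM in WT, against 18.3 ± 5.23 CPM in *Il6*-/- recipients (log2FC 0.94, SE 0.18, FDR = 0.0094). *Melk*, a kinase gene of cycling cells, was at 12 ± 2.97 CPM and 22.5 ± 7.26 CPM (log2FC 0.90, SE 0.20, FDR = 0.0188). Without replicate 1 of WT on Day 5, the FDR was 0.0543 for *Kntc1* and 0.0972 for *Melk*, and *Melk* was also lost without replicate 2 (0.0675) or 3 (0.0579) of *Il6*-/- recipients. Neither was called when the 6 Day 5 libraries were fitted alone (FDR = 0.0576 and 0.0889). Among the regulators, *Mybl2* had a log2FC of 0.90 (FDR = 0.107), *Plk1* of 0.86 (0.0899), *Ccna2* of 0.62 (0.327) and *Foxm1* of 0.51 (0.362). Of the 48 DNA replication genes, 8 were called higher and none lower, with a median log2FC of 0.53. In the same fit, 1.27% of all genes were higher and 3.35% lower.

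The genotype difference on Day 3 was then compared with that on Day 5 as an interaction. None of the 46 genes was called, where 3.12% of all genes were above 0 and 1.8% below 0 at an FDR under 0.05. At an unadjusted p under 0.05, 21 genes were below 0 and 1 above, as were 8.89% and 11.6% of all genes, and limma-voom called 0 with 24 at that p. DESeq2 called 2 below 0, *Kif23* and *Ncapd2*, against 4.2% of the 11465 genes counted as tested there. The difference, Day 3 minus Day 5, was below 0 for 43 of 46 genes, with a median of -0.71, whereas 49.5% of all genes were above 0. The smallest FDR was that of *Ncapd2*, with a difference of -0.76 (SE 0.24, FDR = 0.084). With replicate number as a block on both days, 36 of the 46 were called below 0, against 5.28% of all genes, for instance *Kif11* at -0.87 (FDR = 0.000384). In that fit 1 was called above 0, *Tmpo*, against 6.24% of all genes. With the block on Day 5 only, 36 were called below 0 and 0 above. Without replicate 1 of *Il6*-/- recipients on Day 5, and with no block, 16 were called below 0, where 5.67% of all genes were called in either direction. The interaction and the day changes share the same libraries, so the smaller falls in *Il6*-/- recipients given earlier are the same differences seen from the other side.

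Across the 12 libraries, most of the genes varied together, more closely on Day 5 than on Day 3. After the mean of each group was taken out, the log2 level of each gene was compared with the mean of the other 45. The median correlation was 0.96, and 42 of the 46 genes were above 0.9. The others were *Lbr* (0.78), *Hjurp* (0.46), *Tmpo* (0.28) and *Smc4* (-0.90). Within the 6 Day 5 libraries, *Smc4* was at -0.92 and *Hjurp* at 0.45, but within the 6 Day 3 libraries they were at 0.15 and 0.98. The 12 libraries share scaling and depth differences, and these values describe them only. Over the 46 genes, the median within the 6 Day 5 libraries was 0.98 and 42 genes were above 0.9. Within the 6 Day 3 libraries the median was 0.79, 13 genes were above 0.9 and 11 were below 0.5. Among these 11 were *Birc5* (-0.09), *Cdca3* (-0.02), *Ccnb2* (-0.01) and *Cks1b* (0.01). The same shares over all genes were not counted.

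Several of the 46 genes share exonic bases with a gene expressed in these cells, and their reads there could not be assigned. Besides *Hjurp*, which has the longer overlap given above, these are *Cdc20* with *Elovl1*, *Cdca3* with *Usp5*, *Aurka* with *Cstf1* and *Fam210b*, *Nusap1* with *Oip5*, *Tacc3* with *Tmem129*, *Ncapd2* with *Mrpl51* and *Cdca2* with *Kctd9*, by 48 to 1277 bases. The longest overlap of these, 1277 bases, was that of *Aurka*, and of the partners *Usp5* was expressed most, at up to 276 CPM.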

How the data were processed

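RNA-seq libraries of OTII cells from 4 groups (WT or *Il6*-/- recipients, Day 3 or Day 5, n = 3) were used. Per the labels and the methods, poly(A) RNA was amplified with an ultra-low input kit and sequenced as single 50 bp reads, trimmed with Trim Galore (0.4.4), aligned with STAR (2.5.2a) to GRCm39 and counted without strand with HTSeq (0.6.1p1), as the submitters' processing notes and the study give them. The deposited values are the authors' raw counts of uniquely aligned reads per gene symbol. A deposited table of log2 CPM values made by the authors was not used. Rows that name no gene were left out of library sizes and tests. They held 23.7% to 28.2% of a library's reads as not uniquely aligned, 11.7% to 17.3% as outside genes and 1.96% to 2.28% as ambiguous.

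Genes were kept by edgeR's filterByExpr (13570 of 40840), scaled by TMM and fitted together over the 12 libraries with edgeR's (4.0.16, R 4.3.3) quasi-likelihood test, with Benjamini-Hochberg adjustment over all genes tested and an FDR threshold of 0.05. DESeq2 (1.42.0), limma-voom (limma 3.58.1), other scalings and filters, a GC-content offset, a replicate block and leaving out each library were alternatives. The block was fitted within each day for the genotype comparisons, and so on Day 3 too, and within each genotype for the day comparisons. A block on Day 5 only was added after the data were seen. Intervals are 95%. Replicate numbers were taken as pairing the Day 5 libraries, because same-numbered WT and *Il6*-/- libraries deviated together for every number (r = 0.24, 0.21 and 0.13, all above the limit of 0.1 set for this), and not the Day 3 libraries (0.03, 0.06 and 0.03). *Trbc1*, which was not part of that rule, followed the numbers on Day 3 as well, so a pairing on Day 3 is not settled. The labels do not state what the numbers stand for. Depth was 16125947 to 26111657 counts per library. The genes named with full values were, by rule, the gene with the highest mean CPM of each role class, the paralog pairs, and those with the smallest p or largest change in each comparison. Genes named besides these are given to cover every gene of a class or were chosen after their values were seen. The 46 genes and the lists were chosen with earlier results of these data known. Gene positions and promoters are those of GENCODE vM39 on GRCm39, to which all 46 genes matched by symbol. Some values and sequences are not reported here.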

Additional observations from a re-analysis of the deposited data

Results flagged for a closer look

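In 2 of the 89 other genes of G2 and mitosis, the genotype difference on Day 3 differed from that on Day 5 in the interaction test of edgeR. For *Kif14*, a mitotic kinesin, the difference, Day 3 minus Day 5, was -1.15 on the log2 scale (SE 0.29, FDR = 0.0365). Its level was 36.4 ± 2.22 CPM in WT, against 28.4 ± 0.927 CPM in *Il6*-/- recipients on Day 3, and 4.36 ± 1.22 and 7.57 ± 2.43 CPM on Day 5 (mean ± SD, n = 3). For *Kntc1*, a kinetochore checkpoint gene, the difference was -0.96 (SE 0.25, FDR = 0.0386), with 68.3 ± 5.84 and 67.4 ± 5.89 CPM on Day 3 and 9.51 ± 2.03 and 18.3 ± 5.23 CPM on Day 5. The FDR of *Kif14* was above 0.05 (0.0608 to 0.0909) without any 1 of 8 libraries, which were WT replicates 2 and 3 and *Il6*-/- replicates 1 to 3 of Day 3, and WT replicate 1 and *Il6*-/- replicates 2 and 3 of Day 5. That of *Kntc1* was above 0.05 (0.0655 to 0.106) without any 1 of the 6 Day 3 libraries or WT replicate 1 of Day 5.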

How the results depend on the processing

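The falls from Day 3 to Day 5 held under every alternative run, with 45 of the 46 genes lower in both genotypes, and medians without 1 library of -2.96 to -2.59 in WT and -2.40 to -1.86 in *Il6*-/- recipients. *Smc4* alone moved across the threshold. In WT, the number of genes called higher was 0 with a 2-fold limit and 0 to 1 without 1 library. In *Il6*-/- recipients, it was 1 with upper-quartile scaling, no scaling, the GC-content offset and the replicate block with that offset, and 0 to 1 without 1 library. For *Smc4* in *Il6*-/- recipients, the log2FC was -0.0004 without replicate 1 of Day 5 and 0.32 without replicate 2. Upper-quartile scaling moved the median of all genes from 0.09 to 0.29 in WT and 0.32 in *Il6*-/- recipients, and no scaling moved the latter to 0.24.

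On Day 3, the genes called higher in *Il6*-/- recipients numbered 1 with no low-count filter, the replicate block, the block with the GC-content offset, or the 6 libraries of that day alone. The genes called lower numbered 2 with the block, 2 with the block and offset, 6 with the 6 libraries alone, and 0 to 1 without 1 library. Of all genes, 7.98% were called in either direction with no filter, 19.6% with the block, 19% with the block and offset and 22.3% with the 6 libraries alone. Without 1 library, 6.71% to 14.6% of all genes were called. The medians without 1 library were -0.07 to 0.00.

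On Day 5, the genes called higher numbered 2 with upper-quartile scaling or no scaling, 37 with no low-count filter, 11 with DESeq2, 39 with the replicate block, 38 with the block and GC-content offset, 39 with the block on Day 5 only, which was chosen after seeing the data, and 0 to 37 without 1 library. The genes called lower numbered 1 with upper-quartile scaling, no filter, DESeq2 or the block, 2 with the block and offset or the block on Day 5 only, and 0 to 1 without 1 library. Without replicate 1 of WT on Day 3, *Tmpo* was called lower. Of all genes, 5.08% were called in either direction with upper-quartile scaling, 4.93% with no scaling and 5.41% with no filter. The share was 11.7% with the block, 11.8% with the block and offset and 11% with the block on Day 5 only. Without 1 library, 1.61% to 8.38% of all genes were called. The medians without 1 library were 0.34 to 0.89. The log2FC of *Cenpa* was -0.0054 without replicate 1 of WT on Day 5, and that of *Lbr* -0.0089 without replicate 2 and 0.18 without replicate 1 of *Il6*-/- recipients.

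In the interaction, the genes above 0 numbered 1 with no filter, the block, or the block and offset, and 0 to 1 without 1 library. Those below 0 numbered 32 with no filter, 2 with DESeq2, 36 with the block, 38 with the block and offset, 36 with the block on Day 5 only, and 0 to 16 without 1 library, with medians of -0.97 to -0.45. Of all genes, 5.03% were called in either direction in the interaction with no filter, 11.5% with the block, 11.1% with the block and offset and 10.7% with the block on Day 5 only. Without 1 library, 1.68% to 6.77% of all genes were called. With no filter, 25836 genes were fitted and no spread between genes was estimated beyond the trend (infinite prior degrees of freedom, against 7). The causes of the moves in these counts, with no filter or with the other alternatives, were not tested. Of the values for single genes, 1390 kept their direction and side of the threshold, 85 passed it only in the alternative, 27 no longer passed it and 3 changed sign. With 3 libraries a group and a Day 5 spread of 0.51 to 0.56 on the log2 scale, most intervals of the comparison without the block reached beyond a 2-fold difference.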
